A study of Mus musculus with 12 samples.

Results

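The genes described here encode proteins of the lysosome, chosen by name: 6 membrane proteins, 8 cathepsins with the peptidase Tpp1, 8 sugar-cleaving enzymes, 6 lipid-handling proteins, the channel Mcoln1 with 3 transcription factors, and 3 subunits of the proton pump. They are 36 of the 18193 genes that the annotation of the array named through a probe set with a single symbol. Of these 36, 35 had at least 1 such probe set, 75 in all, and Cd63 was not analysed here. All 35 passed the filter on low signals, through 68 probe sets, and were tested among 11815 genes.

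The lysosome is the acid compartment in which cells break down proteins, sugar chains and lipids taken up from outside or delivered by autophagy. The proton pump, or V-ATPase, acidifies it, cathepsins cut proteins, glycosidases remove sugars, and Npc1 and Npc2 pass cholesterol out. The related factors Tfeb, Tfe3 and Mitf bind a CACGTG-containing element in the promoters of many lysosome genes. In myeloid cells lysosomes are abundant in macrophages, and granulocytes pack related hydrolases into granules.

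The samples were 12 Affymetrix Mouse430_2 arrays of total RNA from cells of mice that carried Stat5a and Stat5b in blood cells (control) or lacked them (knockout). STAT5A and STAT5B carry signals from the receptor of GM-CSF, the cytokine in the title of the series, which asks how STAT5 regulates the granulocyte formation that GM-CSF drives. Each genotype had 3 untreated and 3 treated arrays, which makes 4 groups. The label of the treatment reads "GMP", and the same letters stand in titles of untreated arrays, so only the word treatment is used. Strain, age, dose, duration, the Cre driver and whether the arrays came from separate animals are not given in the sources used here, and p-values here describe no more than how these arrays vary, which may be technical. The titles give 3 array dates, and all 4 groups are present once on each. One exception in the titles is the treated knockout array of date 2, whose number tag differs from that of its 3 companions.

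Stat5a signals were 375 to 1150 on the 6 control arrays and 26.7 to 101 on the 6 arrays labelled knockout, and for Stat5b 287 to 1530 and 1.8 to 60.5. Markers of granulocyte-macrophage progenitors were bright, with mean signals of 30100 to 50100 for Mpo and 7410 to 13500 for Elane over the 4 groups. The macrophage complement genes C1qa and C1qb reached at most 7.25 and 49.8. Other monocyte and macrophage markers had control untreated means of 13800 (Csf1r), 2330 (Ccr2), 886 (Cd14), 533 (Adgre1), 69.4 (Mrc1) and 49.8 (Fcgr1). In the same group neutrophil markers ran from 64.6 for Cxcr2 to 12000 for S100a8. The NK cell marker Nkg7 had a mean of 8260 there, and Klrd1, also of NK cells, 72.9. Whether these signals came from mature blood cells or from progenitors was not tested. Arrays of date 2 stood apart in a ratio often read for RNA quality, the 3' end signal of Actb over that at its 5' end. This ratio ran from 20.8 to 266 on date 2, while dates 1 and 3 gave 1.14 to 2.05. The cause of this gap was not tested.

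Promoters of the members are shown first because some of them hold the letters of the element of the MiT/TFE factors. The members were chosen as lysosome genes, the class in which this element is known, so their share is a description only. RefSeq windows (GRCm38.p6, 250 bases before to 50 after a start) were matched by symbol for 31 of the 36 genes. Ctsb, Ctsh, Npc1, Asah1 and Atp6v1h had no entry. The letters CACGTG, which read the same on both strands, were found in 11 of 31 genes, or 35.5%, against 8.09% of the 27025 genes with such a window. The longer TCACGTG, searched on both strands and always containing the shorter motif, was found in 10 of 31, or 32.3%, against 4.29%. The holders were Lamp1, Ctsa, Ctsd, Gaa, Gla, Glb1, Naglu, Mcoln1, Atp6v0d1 and Atp6v1a. The STAT-type motif TTCNNNGAA was found in Ctsc alone, 3.23% of the matched members against 9.55% of all genes. A match is a description of letters and not a bound site. The stretches below lie upstream of the start, 5′ to 3′, with CACGTG in capitals. Lamp1, Mcoln1, Naglu, Glb1 and Ctsd represent holders of the longer motif from 4 roles, and Ctsl is the member that rose with treatment in both genotypes and held only the shorter one. They lie at chr8:13159081-13159160 (plus strand), chr8:3500420-3500499 (plus), chr11:101069967-101070046 (plus), chr9:114400976-114401055 (plus), chr7:142387900-142387979 (minus) and chr13:64370691-64370770 (minus), in this order.
Lamp1: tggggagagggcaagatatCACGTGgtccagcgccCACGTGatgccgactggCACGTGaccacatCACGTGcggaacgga
Mcoln1: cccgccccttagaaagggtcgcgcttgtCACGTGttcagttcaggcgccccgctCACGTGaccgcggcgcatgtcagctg
Naglu: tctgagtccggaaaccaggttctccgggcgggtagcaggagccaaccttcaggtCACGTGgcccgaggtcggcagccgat
Glb1: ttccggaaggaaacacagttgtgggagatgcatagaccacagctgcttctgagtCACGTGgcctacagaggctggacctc
Ctsd: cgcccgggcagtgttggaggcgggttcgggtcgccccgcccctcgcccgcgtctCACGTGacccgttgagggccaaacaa
Ctsl: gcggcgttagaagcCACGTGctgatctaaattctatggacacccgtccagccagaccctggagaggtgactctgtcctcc
Lamp1 shows 4 copies of the motif in 80 bases and Mcoln1 2 copies, and the others 1 each in the stretch shown.

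Treatment changed few of the 35 genes. The protease gene Ctsl and the transcription factor gene Mitf rose in both genotypes. The membrane protein gene Gpnmb passed the test in both as well, from untreated signals mostly under the filter minimum of 70.5. Gpnmb included, in control cells 3 members rose and 1, the glycosidase gene Gusb, fell, at a Benjamini-Hochberg adjusted p under 0.05 in limma over all genes. This is 4 of 35, beside 6.77% of all genes, of which 4.21% rose and 2.56% fell. In knockout cells 6 members rose and 0 fell, beside 11.2% of all genes, 6.73% up and 4.45% down. Against these shares the counts set nothing apart as particular to the members. Treated and untreated groups did not overlap for 8 members in control cells, beside 16% of all genes, and for 9 in knockout cells, beside 20.9%. Over the members' 68 probe sets, fitted with all 21363, 3 rose and 0 fell in control cells (4.7% of all probe sets passed) and 7 rose and 0 fell in knockout cells (8.66%). There Gusb in control and Tfe3 in knockout cells missed the threshold (adjusted p = 0.0552 and 0.0516). Quantile scaling gave 3 up and 4 down in control and 6 up and 1 down in knockout cells, and scaling to the 75th percentile 3 and 3, and 6 and 2. The median log2 change of the members was -0.03 in control and 0.23 in knockout cells, beside -0.04 and -0.02 over all genes. On dates 1, 2 and 3 it was 0.01, -0.40 and 0.06 in control and 0.16, 0.25 and 0.17 in knockout cells. Without date 2 the medians were 0.12 and 0.17, so most of the gap between the genotypes rested on date 2. In these bulk samples a change in the share of a cell type and a change in RNA per cell cannot be told apart.

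**Figure D1:**
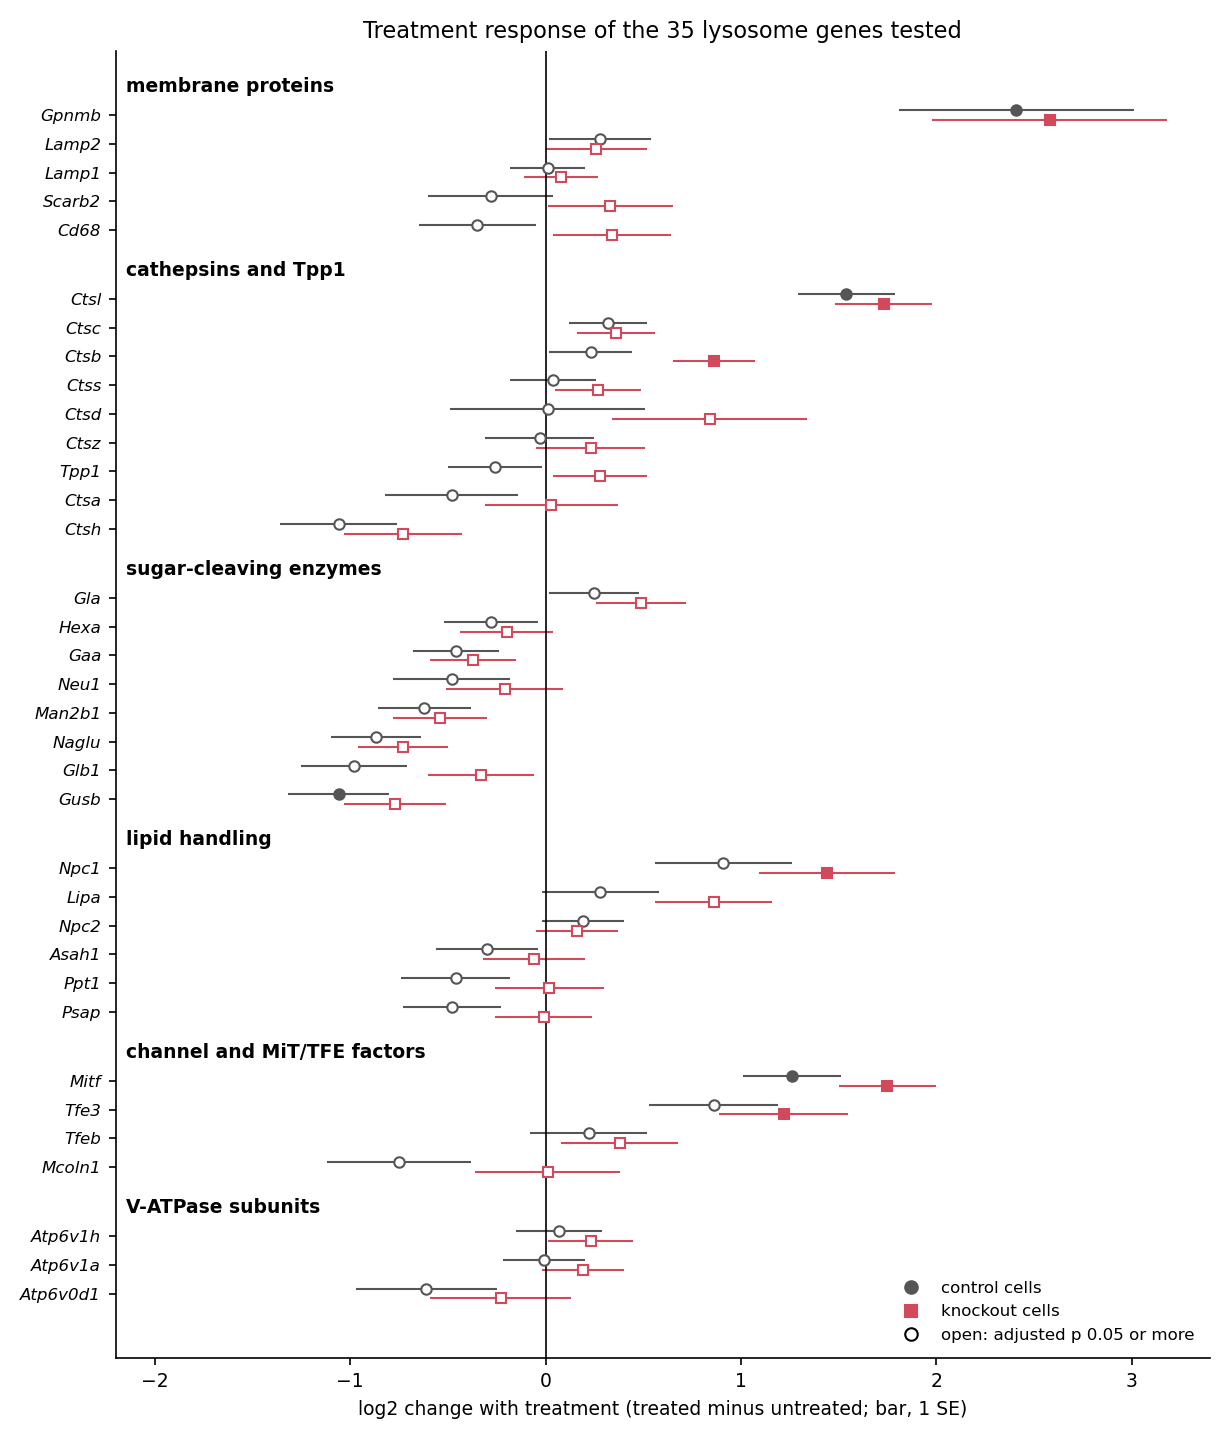
Log2 change with treatment (horizontal axis) of each of the 35 genes, grouped by role, in control cells (grey circles) and knockout cells (red squares), with bars of 1 SE and filled symbols for an adjusted p under 0.05. Gpnmb, Ctsl and Mitf lie to the right in both genotypes, and 7 of 8 sugar-cleaving enzymes lie left of 0 in both.

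Among the cathepsins, Ctsl, a cysteine endopeptidase, was the only one that passed in both genotypes. Its signals were 1500, 1620 and 1950 in control untreated cells on dates 1, 2 and 3 (the order used throughout) and 5600, 3130 and 6690 in control treated cells. In knockout cells they were 1720, 1560 and 1640 without and 5900, 3920 and 7130 with treatment. Every treated array lay above every untreated array. The log2 rise was 1.54 ± 0.25 (SE, limma adjusted p = 0.00732) in control and 1.73 ± 0.25 (adjusted p = 0.00318) in knockout cells. Both calls held in each of the 12 fits that left out 1 array, with an adjusted p of at most 0.0496 and 0.0228. A dim second probe set of Ctsl, with mean signals of 52.7 to 97.9, differed by -0.68 ± 0.45 in control and -0.15 ± 0.45 in knockout cells, and neither value passed the test. With the mean of both probe sets in place of the brighter one, neither rise of Ctsl passed.

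Ctsb, a cysteine protease of broad specificity, gave 5390, 7370 and 7040 in control untreated and 6750, 7170 and 9340 in control treated cells. In knockout cells its signals were 6200, 6710 and 6640 untreated and 9900, 14600 and 11500 treated. The groups overlapped in control cells and were apart in knockout cells. The log2 rise in knockout cells was 0.86 ± 0.21 (limma adjusted p = 0.0278), and in control cells the difference was 0.23 ± 0.21 (adjusted p = 0.557). All 4 other probe sets of Ctsb had positive values in knockout cells, from 0.77 to 1.82, and 1 of them passed the test (1.59 ± 0.36, adjusted p = 0.0253 over 21363 probe sets). The call of Ctsb was lost without any single one of the 6 knockout arrays or without control untreated replicate 3 (adjusted p of at most 0.115), and was 0.0556 without date 2.

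Ctsd, the main aspartic protease, gave 5500, 928 and 4850 in control untreated, 5040, 687 and 7210 in control treated, 5320, 2520 and 5870 in knockout untreated and 6480, 6300 and 11000 in knockout treated cells. Date 2 was far below the other dates in the first 3 of these groups, and the knockout groups did not overlap. With treatment it differed by 0.01 ± 0.50 in control cells (95% interval -1.11 to 1.12) and 0.84 ± 0.50 in knockout cells (-0.28 to 1.95). Ctsh, an aminopeptidase, gave 2810, 1810 and 5090 against 1830, 488 and 3140 with treatment in control cells, and 4060, 2520 and 6530 against 2560, 1590 and 3590 in knockout cells. It was lower with treatment on each date in both genotypes, by -1.06 ± 0.30 (adjusted p = 0.0614) and -0.73 ± 0.30 (adjusted p = 0.146), and its treated and untreated groups overlapped.

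The other cathepsins did not pass. Ctsc, which activates granule serine proteases, differed by 0.32 ± 0.20 in control and 0.36 ± 0.20 in knockout cells. Ctss, which trims the invariant chain of MHC class II, differed by 0.04 and 0.27, the carboxypeptidase genes Ctsz by -0.03 and 0.23 and Ctsa by -0.48 and 0.03. Tpp1, which removes tripeptides, was on its brighter probe set lower with treatment on each date in control cells (-0.26 ± 0.24). There it was higher on each date in knockout cells (0.28 ± 0.24). The difference between these responses, 0.54 ± 0.34, had an unadjusted p of 0.144 in limma. A second probe set of Tpp1, with mean signals of 862 to 1200, was below 0 in both genotypes (-0.42 ± 0.22 and -0.20 ± 0.22).

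Of the membrane proteins, Gpnmb, a glycoprotein of phagocytes and pigment cells, was near background without treatment and brighter with it. It gave 34.1, 9.28 and 55.1 in control untreated and 83.9, 185 and 549 in control treated cells. In knockout cells the signals were 35.2, 96.5 and 59 untreated, and from 111 on date 1 to 897 on date 3 treated, with date 2 between them. The lowest treated array lay above the highest untreated array of its genotype, while the treated signals of a genotype spread over a wide range. It passed the filter through the 6 treated arrays and 1 untreated array, knockout untreated replicate 2, so the treated groups brought it into the test. The fitted log2 differences, 2.41 ± 0.60 (limma adjusted p = 0.0419) in control and 2.58 ± 0.60 (adjusted p = 0.0236) in knockout cells, start from a baseline under the minimum and depend on the 13 added before the log, so they are no measured size. With no filter the adjusted p was 0.0744 in control and 0.0431 in knockout cells, and without date 2 0.0805 and 0.0426. In control cells the call was lost on leaving out any control treated array, control untreated replicate 2 or 3, knockout untreated replicate 1 or knockout treated replicate 3 (adjusted p of at most 0.157). In knockout cells it was lost without knockout untreated replicate 1 or 3 or knockout treated replicate 2 or 3 (at most 0.11).

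Lamp1, the most widely used lysosome membrane marker, was nearly level. Its signals were 9330, 12600 and 9920 in control untreated, 10200, 11000 and 10800 in control treated, 9840, 11000 and 11500 in knockout untreated and 10800, 11600 and 11900 in knockout treated cells. Treatment differences were 0.01 ± 0.19 (95% interval -0.41 to 0.44) and 0.08 ± 0.19 (-0.34 to 0.51). Lamp2, its partner, differed by 0.28 ± 0.26 and 0.26 ± 0.26 on its brightest probe set. Its other probe sets gave -0.39, -0.32 and 0 in control and -0.37, -0.22 and 0.11 in knockout cells. Scarb2, the receptor that delivers glucocerebrosidase, differed by -0.28 ± 0.32 and 0.33 ± 0.32. Cd68, a glycoprotein abundant in macrophages, gave 606, 519 and 688 in control untreated, 417, 298 and 815 in control treated, 735, 688 and 721 in knockout untreated and 601, 934 and 1320 in knockout treated cells. It differed with treatment by -0.35 ± 0.30 and 0.34 ± 0.30, and passed in neither genotype.

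Of the transcription factors, Mitf rose in both genotypes and Tfe3 in knockout cells. Mitf gave 509, 620 and 606 in control untreated, 1400, 1200 and 1620 in control treated, 556, 779 and 647 in knockout untreated and 2020, 3180 and 1740 in knockout treated cells. Treated and untreated arrays did not overlap, and all 3 knockout treated arrays lay above the control treated ones. The log2 rise was 1.26 ± 0.25 (limma adjusted p = 0.0182) in control and 1.75 ± 0.25 (adjusted p = 0.00322) in knockout cells. A dimmer probe set had values of 1.63 ± 0.62 and 2.03 ± 0.62 and did not pass (adjusted p = 0.165 and 0.0694), and with the most variable probe set of each gene neither call of Mitf held. The call in knockout cells held without any 1 array. That in control cells was lost without any 1 control untreated array, or without control treated replicate 1 or 3 (adjusted p of at most 0.0941).

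Tfe3 gave 298, 410 and 242 in control untreated, 687, 370 and 737 in control treated, 405, 479 and 253 in knockout untreated and 946, 1020 and 683 in knockout treated cells. Its groups were apart in knockout cells, and in control cells date 2 showed no rise. The log2 rise in knockout cells was 1.22 ± 0.33 (limma adjusted p = 0.0435), and in control cells the difference was 0.86 ± 0.33 (adjusted p = 0.155). The call in knockout cells was kept in 3 of 12 fits that left out an array (replicate 2 of either control group, or replicate 3 of the control treated group), and the adjusted p reached 0.173 in the other 9.

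Tfeb, the factor for which the CACGTG-containing element is best known, gave 310, 407 and 299 in control untreated, 434, 263 and 537 in control treated, 349, 596 and 484 in knockout untreated and 657, 561 and 612 in knockout treated cells. With treatment it differed by 0.22 ± 0.30 (95% interval -0.45 to 0.90) and 0.38 ± 0.30 (-0.30 to 1.05). Mcoln1, the calcium channel of the lysosome, differed by -0.75 ± 0.37 and 0.01 ± 0.37. In control cells its change was -0.28, -1.90 and -0.07 by date, and -0.18 without date 2. Its control treated signal on date 2 was 18.6, under the filter minimum. None of the 10 members with TCACGTG in the promoter window passed the test in either genotype, beside 6.77% and 11.2% of all genes. For 10 genes this is near these shares and shows nothing particular to the holders. Their median changes were -0.47 in control and 0.02 in knockout cells, and those of the 20 other matched and tested members 0.01 and 0.28. In control cells the change was lowest on date 2 for all of the 10 holders but Gaa and Naglu. These medians were not taken without date 2, so no contrast between the genotypes is drawn from them. Of the 20 other members, Gusb fell in control cells, Ctsl, Mitf and Gpnmb rose in both genotypes and Tfe3 rose in knockout cells. Gpnmb is counted here though its treated groups brought it into the test. These counts are small, and no contrast between holders and others is drawn from them.

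**Figure D2:**
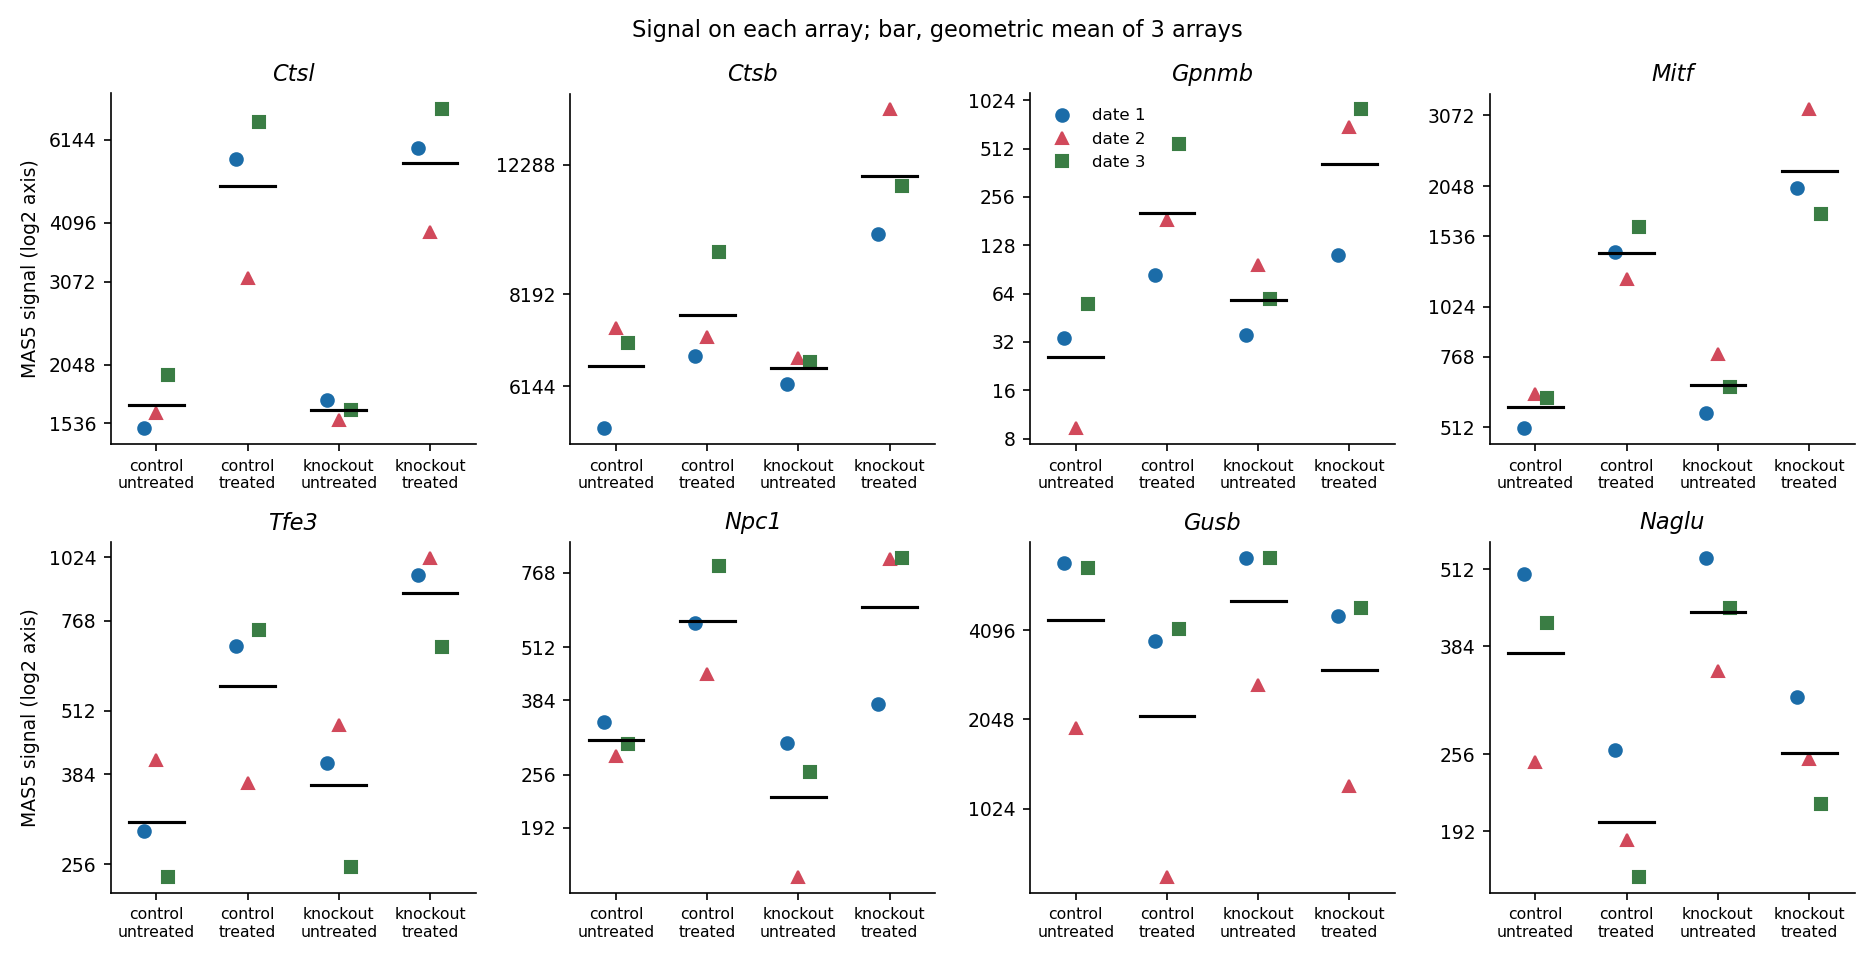
MAS5 signal (vertical axis, log2 scale) on each of the 12 arrays for the 7 genes past the threshold in at least 1 genotype and for Naglu, with symbols for the 3 dates and a bar at the geometric mean of a group. For Ctsl, Gpnmb and Mitf all treated arrays lie above the untreated arrays of the same genotype, and the 4 arrays of date 2 are the lowest for Gusb.

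Lipid-handling genes included 1 that passed. Npc1, which moves cholesterol out of the lysosome, gave 342, 284 and 303 in control untreated, 585, 442 and 798 in control treated, 305, 147 and 260 in knockout untreated and 377, 828 and 833 in knockout treated cells. The groups did not overlap in either genotype. The log2 rise was 1.44 ± 0.35 (limma adjusted p = 0.029) in knockout cells, and the difference in control cells was 0.91 ± 0.35 (adjusted p = 0.155). By date the rise in knockout cells was 0.29, 2.40 and 1.63, and without date 2 it was 0.96 (adjusted p = 0.112). The call was also lost without knockout untreated replicate 2 or 3 or knockout treated replicate 2 or 3 (at most 0.115).

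The acid lipase gene Lipa differed by 0.28 ± 0.30 in control and 0.86 ± 0.30 in knockout cells (adjusted p = 0.0939). Npc2, the soluble partner of Npc1, differed by 0.19 and 0.16 on its brightest probe set. A dim probe set of Npc2 is counted among the 7 that passed in knockout cells. Its means were 27.1, 57.8 and 24.4 in the control untreated, control treated and knockout untreated groups, under the minimum, and 137 in knockout treated cells. It passed the filter through treated arrays alone, and no size or test is given for it. The sphingolipid activator precursor Psap differed by -0.48 and -0.01, the ceramidase gene Asah1 by -0.30 and -0.06, and the thioesterase gene Ppt1 by -0.46 and 0.02.

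The sugar-cleaving enzymes had values below 0 for 7 of 8 genes in each genotype, with medians of -0.55 and -0.35, and 1 of them passed. Gusb, the beta-glucuronidase gene, gave 6900, 1910 and 6630 in control untreated, 3770, 604 and 4130 in control treated, 7140, 2670 and 7170 in knockout untreated and 4560, 1220 and 4880 in knockout treated cells. It was lower with treatment on every date in both genotypes, and date 2 was the lowest array of every group. The log2 fall was -1.06 ± 0.26 (limma adjusted p = 0.0418) in control cells, and the difference in knockout cells was -0.77 ± 0.26 (adjusted p = 0.0902). The call was kept only in the fits without knockout untreated or knockout treated replicate 2, and the adjusted p reached 0.136 in the other 10.

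Glb1, the beta-galactosidase gene, gave 1370, 2210 and 1260 in control untreated, 986, 727 and 678 in control treated, 1860, 2090 and 974 in knockout untreated and 1320, 1860 and 764 in knockout treated cells. The control groups were apart, with a difference of -0.98 ± 0.27 (adjusted p = 0.0599), and the knockout groups overlapped (-0.33 ± 0.27). Naglu, which cuts heparan sulfate, gave 503, 249 and 419 against 260, 186 and 162 with treatment in control cells, and 534, 350 and 443 against 317, 252 and 213 in knockout cells, where the groups did not overlap. It lay just outside the threshold at -0.87 ± 0.23 (adjusted p = 0.0514) and -0.73 ± 0.23 (adjusted p = 0.0703). Man2b1, a mannosidase, had groups that did not overlap in either genotype and differed by -0.62 ± 0.24 and -0.54 ± 0.24. Values for Gaa, which degrades glycogen, were -0.46 and -0.37, for the sialidase gene Neu1 -0.48 and -0.21, for Hexa, a subunit of hexosaminidase, -0.28 and -0.20, and for the galactosidase gene Gla 0.25 and 0.49.

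The 3 proton pump subunits did not pass. Atp6v1a and Atp6v1h, of the part that splits ATP, differed by -0.01 and 0.07 in control and 0.19 and 0.23 in knockout cells, with SEs of 0.21 and 0.22. Atp6v0d1, of the membrane part, differed by -0.61 ± 0.36 and -0.23 ± 0.36. The median half-width of an unadjusted 95% interval over all genes was 0.64 on the log2 scale, so smaller differences were mostly not detectable with 3 arrays a group. The adjusted threshold is stricter, and larger differences, such as that of Ctsh in control cells (-1.06 ± 0.30), also missed it.

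Markers of other myeloid cells moved in mixed directions with treatment. The summed signal of the 6 monocyte and macrophage markers tested was 9930 to 29300 in control untreated and 19100 to 45700 in control treated cells, and 10300 to 25300 and 22500 to 35700 in knockout cells. Most of it came from Csf1r, the CSF1 receptor (group means of 13300 to 20700), and Cd14, the lipopolysaccharide co-receptor. In control cells 5 of 6 were above 0 with a median of 0.85, and in knockout cells 3 of 6 with a median of 0. Cd14 was the 1 marker of the 6 that passed, by 2.63 ± 0.46 (adjusted p = 0.0106) and 3.47 ± 0.46 (adjusted p = 0.00215). In knockout cells Adgre1 (-0.74 ± 0.25), Ccr2 (-0.55 ± 0.33) and Mrc1 were below 0. For Mrc1 both means (45.1 untreated and 34.8 treated) were under the filter minimum, so no size is given. C1qa and C1qb also stayed below this minimum.

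The summed signal of 4 mast cell and basophil markers, cells in which Mitf is active, was 5570 to 9620 and 3260 to 6450 in control cells and 4490 to 6850 and 2800 to 6250 in knockout cells. Among them Cpa3 differed by -1.28 ± 0.34 (adjusted p = 0.0526) in control and -1.23 ± 0.34 (adjusted p = 0.0464) in knockout cells. Of 6 dendritic cell markers, with sums of 994 to 3010 over all arrays, 2 were above 0 in control and 4 in knockout cells, with medians of -0.06 and 0.09. Cd74, the invariant chain, rose by 1.83 ± 0.34 (adjusted p = 0.0134) and 1.30 ± 0.34 (adjusted p = 0.0381), while its MHC class II partners H2-Ab1 (-0.60 and -0.55) and H2-Aa (-0.55 and 0.06) did not pass.

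The sum of 9 neutrophil markers was 7060 to 67300 and 12000 to 26800 in control and 7960 to 28400 and 12400 to 45700 in knockout cells, and 0 of 9 passed in limma (3 and 1 at an unadjusted p under 0.05). The NK cell marker Nkg7 had means of 8260 and 3480 in control and 8610 and 3760 in knockout cells (adjusted p = 0.0877 and 0.0624). Klrd1, also of NK cells, differed by 0.11 ± 0.49 and 0.98 ± 0.49, and the T cell genes Cd3e and Cd3g did not pass the filter. Of 7 granulocyte-macrophage progenitor markers 6 were below 0 with treatment in each genotype, with medians of -0.04 and -0.29, and 0 passed. Among them Ms4a3 differed by -0.78 ± 0.59 in control and -1.87 ± 0.59 in knockout cells. The part of these markers in the results for lysosome genes was not tested.

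The response to treatment was not shown to differ between genotypes for any member. In limma 0 of 35 members and 0% of all genes passed for the difference of the responses. At an unadjusted p under 0.05 were 0 members, beside 291 of all 11815 genes. The smallest p were those of Ctsb (0.63 ± 0.29, unadjusted p = 0.0577) and Glb1 (0.65 ± 0.38, unadjusted p = 0.123), both higher in knockout cells. By date the values were 0.35, 1.16 and 0.38 for Ctsb and -0.02, 1.42 and 0.54 for Glb1. The median over the members was 0.03, 0.70 and 0.13, so it was largest on date 2. For Ctsl the difference was 0.19 ± 0.35 (95% interval -0.59 to 0.97) and for Mitf 0.49 ± 0.36 (-0.30 to 1.29). The median half-width of an unadjusted 95% interval over all genes was 0.91. The adjusted threshold is stricter, so differences larger than this could be missed too.

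Without treatment no member was shown to differ between the genotypes. In limma 0 of 35 members passed, beside 0.0169% of all genes (0 of 68 probe sets, beside 0.00936% of all). At an unadjusted p under 0.05 were 0 members, beside 262 of all 11815 genes. Groups did not overlap for 1 of 35, Man2b1, beside 3.83% of all genes. The median difference, knockout minus control, was 0.04 for the members and -0.01 for all genes. The smallest p were those of Ctsh (0.45 ± 0.30, unadjusted p = 0.156) and Tfeb (0.46 ± 0.30, unadjusted p = 0.162), and both were higher in knockout cells on all 3 dates with overlapping groups. Lamp1 differed by 0.03 ± 0.19 (95% interval -0.39 to 0.45), Ctsl by -0.03 ± 0.25 (-0.58 to 0.52) and Ctsb by -0.01 ± 0.21 (-0.47 to 0.46). Intervals were wider for Ctsd (0.55 ± 0.50, -0.56 to 1.66) and Npc1 (-0.42 ± 0.35, -1.21 to 0.36). The median half-width of an unadjusted 95% interval over all genes was 0.64, so differences of this size could be missed.

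With treatment the members were mostly higher in knockout cells, though none passed the test over all genes. In limma 0 of 35 passed, beside 0.11% of all genes (0 of 68 probe sets, beside 0.0609%), and 7 members and 1149 of the 11815 genes had an unadjusted p under 0.05. Values above 0 were found for 33 of 35 members, and the median was 0.43, beside 0.01 over all genes. The 7 members were Cd68 (0.94 ± 0.30, adjusted p = 0.50), Ctsb (0.62 ± 0.21), Ctsa (0.99 ± 0.34), Ctsd (1.38 ± 0.50), Mitf (0.67 ± 0.25), Ctsh (0.78 ± 0.30) and Glb1 (0.64 ± 0.27), the last 6 with an adjusted p of 0.506 to 0.514. Groups did not overlap for Ctsa, Ctsb, Mitf and Tfeb, or 4 of 35, beside 6.19% of all genes. In the same comparison 5 of 6 monocyte and macrophage markers were below 0, with a median of -0.46. Among them were Adgre1 (-0.90 ± 0.25, limma adjusted p = 0.444) and the mannose receptor gene Mrc1. Mrc1 had means of 159 in control treated and 34.8 in knockout treated cells. Its mean was above the filter minimum in the control treated group only, so no size or test is given for it. Of 9 neutrophil markers 7 were above 0 (median 0.15), and of 7 granulocyte-macrophage progenitor markers 6 were below 0 (median -0.07). The part of these markers in the members' values was not tested. The comparison shares its treated arrays with the comparisons above, so the values are not independent of them.

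The size of this difference rested on date 2. The median over the members was 0.25 on date 1, 0.95 on date 2 and 0.16 on date 3, beside 0.01, 0.07 and -0.02 over all genes, with 27, 32 and 29 of 35 members above 0. For Ctsd the values were 0.36, 3.17 and 0.61, for Ctsa 0.45, 2.13 and 0.38, and for Cd68 0.51, 1.61 and 0.69. Without date 2 the median was 0.17, with 31 of 35 above 0, and without control treated replicate 2 alone it was also 0.17. On date 2 the Actb 3' to 5' ratio was 266 in control treated and 20.8 in knockout treated cells. Relative to its mean over the 12 arrays the median member lay at -0.73 on control treated replicate 2, the lowest of the arrays, and at 0.46 on knockout treated replicate 3, the highest. What part RNA quality had in this was not tested.

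**Figure D3:**
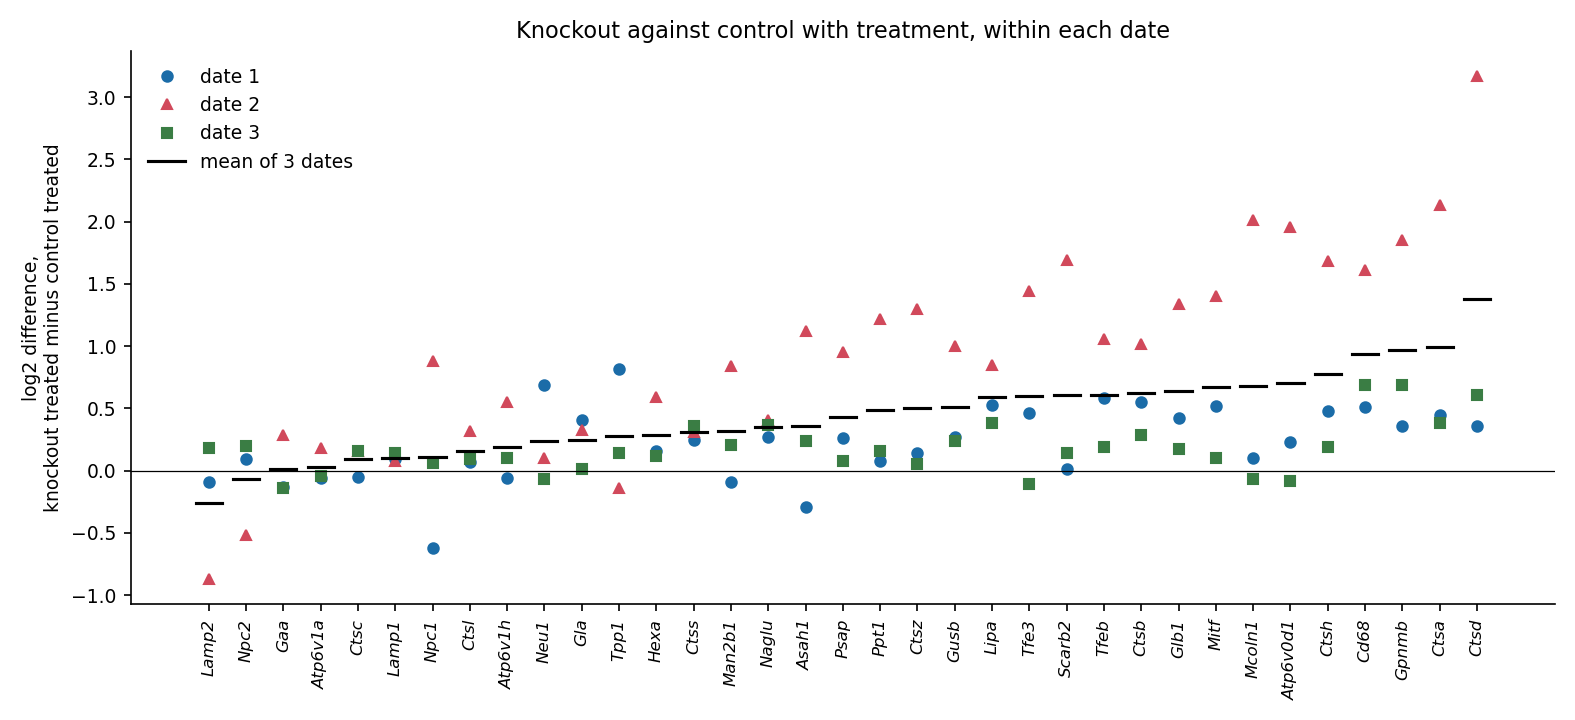
Log2 difference between knockout treated and control treated arrays (vertical axis) within each date for the 35 members, ordered by the mean of 3 dates (bars). Values of date 2 reach 3.17 (Ctsd), while those of dates 1 and 3 lie between -0.62 and 0.82.

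Members also differed in level between the dates themselves. Averaged over the 4 groups, date 2 was lower than the other dates by more than 1 on the log2 scale for 8 members and higher by more than 1 for 3, or 31.4% of the members beside 24% of all genes. Psap was lower by -3.24, Mcoln1 by -3.04, Atp6v1h by -2.33 and Ctsz by -2.17, and Npc2 was higher by 1.56, Lipa by 1.18 and Lamp2 by 1.03. For these 7 genes this gap was larger than each fitted difference between groups.

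A wider list of 133 other lysosome genes had 111 tested, of which 5 rose and 3 fell in control cells and 8 rose and 5 fell in knockout cells, with medians of 0.00 and 0.12. With 6.77% and 11.2% of all genes passing, these counts are near the background and show nothing particular to lysosome genes. Slc15a3, a lysosomal peptide and histidine transporter gene, is counted among those that rose in both genotypes. It passed the filter through treated arrays alone, and no size or test is given for it. Sqstm1, the autophagy receptor p62, rose by 2.38 ± 0.44 (limma adjusted p = 0.0133) in control and 3.34 ± 0.44 (adjusted p = 0.00215) in knockout cells. Slc11a1, a metal transporter of phagosomes, rose by 1.67 ± 0.29 (adjusted p = 0.01) and 3.20 ± 0.29 (adjusted p = 3.6e-04), and Cstb, an inhibitor of cysteine cathepsins, by 1.28 ± 0.26 and 1.33 ± 0.26.

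Genes that passed in knockout and missed the threshold in control cells were Lgmn, Mcoln2 (2.10 ± 0.39), Fnip1 (1.11 ± 0.25) and Cln8 (1.02 ± 0.28). Lgmn is a protease that processes cathepsins, and Mcoln2 is a channel gene. For Slc15a3, Lgmn and Mcoln2 the untreated means were 16.4 to 56.9, under the filter minimum. Slc15a3 and Lgmn entered the test through treated arrays alone, so no size is given for them. Mcoln2 entered through 6 treated arrays and 1 untreated array, so its fitted value is no measured size. For Slc11a1 the difference between the responses was 1.54 ± 0.41, not past the threshold. Naaa, an amidase, rose in control cells (1.10 ± 0.28, adjusted p = 0.046) and was at mean signals of 232 and 207 in knockout cells. Falls in both genotypes were those of the sorting genes Gga2 (-1.15 ± 0.21 and -1.37 ± 0.21) and Sort1 (-1.07 ± 0.20 and -1.06 ± 0.20), which direct hydrolases from the Golgi, and of the mannosidase gene Manba (-0.88 ± 0.23 in control cells). In knockout cells the sulfatase gene Arsb (-1.31 ± 0.32) and the acid phosphatase gene Acp5 (-1.36 ± 0.29) fell too. Fnip1, Cln8, Naaa and Arsb complete these counts and were named after their values were seen.

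By role, to be read beside the same shares of all genes, the 13 other proton pump subunits had 0 past the threshold in either genotype. At an unadjusted p under 0.05 were 2 and 1 of them, beside 2754 and 3221 of all 11815 genes. The 9 proteases and inhibitors had 1 and 2 up, and the 25 membrane proteins and transporters 2 and 4 up. Lgmn and Slc15a3, which entered through treated arrays alone, are in these counts. Of the 23 other hydrolases 1 rose and 1 fell in control cells and 3 fell in knockout cells. Of 20 sorting genes 2 fell in each genotype, and of 21 autophagy and signalling genes 1 and 2 rose. No gene of the wider list passed in limma between the genotypes without or with treatment or for the difference of responses. At an unadjusted p under 0.05 were 2, 13 and 3 of its 111 genes, beside 262, 1149 and 291 of all 11815 genes. These counts are near the background.

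**Figure D4:**
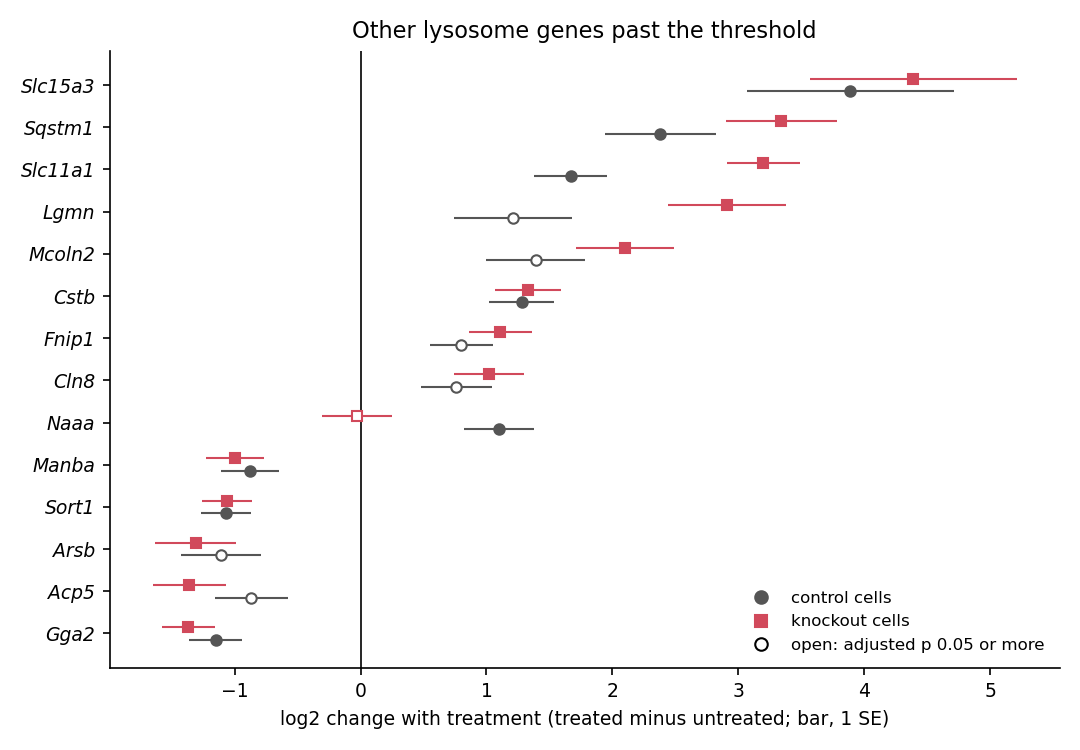
Log2 change with treatment (horizontal axis) of the 14 genes of the wider list that passed the test in at least 1 genotype, in control cells (grey circles) and knockout cells (red squares), with bars of 1 SE and open symbols where the adjusted p was 0.05 or more. Slc15a3, Sqstm1 and Slc11a1 lie farthest to the right, and Gga2, Sort1 and Manba lie left of 0 in both genotypes. Slc15a3 and Lgmn passed the filter through treated arrays alone, so their positions are no measured sizes.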

How the data were processed

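The authors deposited 1 linear intensity per probe set and array; the submitters' processing notes name MAS5. Its version, scaling target and masking are not given in the sources used here. With 2% trimmed from both ends, array means were 500.003 to 500.004, so the values were already scaled. Dim MAS5 values are noisy because mismatch probes are subtracted. No count depth exists for an array, and the number of arrays limits precision.

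Probe sets with 1 symbol in the platform annotation were used (34945 of 45101, 932 with several symbols left out). To pass, a probe set needed 3 or more arrays above 70.5, the median over the whole table. The brightest passing probe set stood for a gene, with cross-hybridizing ones used last. The deposited values were taken to log2(intensity + 13), 13 being the rounded 20th percentile, so changes of dim genes are understated. limma 3.58.1 in R 4.3.3 fitted 4 groups and the date as a block to all 12 arrays (6 residual and 3.96 prior degrees of freedom), for 5 comparisons, with Benjamini-Hochberg adjustment over 11815 genes. All 21363 passing probe sets were fitted separately. The fit was tested on simulated data. Python 3.11.15 and matplotlib 3.10.9 drew the plots.

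Same-date arrays deviated together from their group means (correlations of 0.36 to 0.75 over 18 pairs, against -0.66 to 0.40 for 36 pairs of different dates and groups), so the dates pair the arrays. No arrays were identical. The members and lists were chosen with earlier results of these data known. All members are accounted for; values on every array are given for Lamp1, Ctsd and Tfeb, for members past the threshold (up to 6 a comparison) and, where none passed, for the 2 with the smallest p. Glb1, Ctsh and Cd68 entered this way, and Naglu was added after its values were seen. Other lysosome genes were named if past the threshold, up to 4 a direction and comparison by smallest adjusted p. Alternatives were the block, the constant, the filter, the scaling, the probe set rule, array weights, the groups fitted, and leaving out date 2 or 1 array. No genome was used except for the RefSeq promoter windows.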

Additional observations from a re-analysis of the deposited data

How the results depend on the processing

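With treatment in control cells 4 members passed in the fit as reported. Without the date block (no replicate block) 0 passed, beside 1.40% of all genes, and with only the 2 groups fitted 0 passed as well. With 1 added before the log, with no filter, or with the most variable probe set of a gene, 2 passed. With 50 added or with quantile scaling 7 passed, and with array weights 9 (20.2% of all genes). Leaving out 1 array gave 1 to 5. In knockout cells 6 passed. Without the date block 2 did (Ctsl and Mitf), beside 2.48% of all genes, with no filter 3, with array weights 10, and without 1 array 2 to 8. Without date 2 the members that passed were partly others. In control cells 3 rose and 2 fell, with Gpnmb lost (adjusted p = 0.0805) and Tfe3 and Naglu gained (0.0173 and 0.021). In knockout cells 4 rose and 2 fell, with Ctsb and Npc1 lost (0.0556 and 0.112) and Naglu and Ctsh gained (0.0375 and 0.0486). Without the block the adjusted p in control cells was 0.0549 for Ctsl, 0.0782 for Mitf, 0.232 for Gpnmb and 0.762 for Gusb, and in knockout cells 0.163 for Ctsb, 0.139 for Gpnmb, 0.0887 for Npc1 and 0.132 for Tfe3. The cause of these shifts was not tested. In the 3 other comparisons 0 members passed under every alternative run. Scaling to the 75th percentile moved the median of all genes with treatment in knockout cells from -0.02 to -0.15 and that of the members from 0.23 to 0.10. Over single genes, settings and comparisons, 3789 values kept their direction and their side of the threshold, 79 lost and 36 gained a call, and 251 values that passed on neither side changed sign. No value past the threshold reversed. With 3 arrays a group and 1 date apart in the Actb 3' to 5' ratio, small differences were not detectable.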
